A study of Oryctolagus cuniculus with 57 samples.

Results

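Hypoxia-responsive genes of glucose breakdown were described in the ileum of young rabbits, and 4 of the 9 genes listed could be read: the aldolase ALDOC, the oxygen sensor EGLN3, the bifunctional enzyme PFKFB4 and the transcription factor subunit HIF1A. They occupy 7 rows of the series value table (1 for ALDOC, 2 for EGLN3, 1 for PFKFB4 and 3 for HIF1A), out of 8286 named genes in that table. PFKFB3, SLC2A1, LDHA, PGK1 and VEGFA, which were also listed, had no row that could be assigned to them with certainty and were not analysed here. ALDOC, EGLN3 and PFKFB4 entered the list because they rose with age in FF rabbits in earlier results of the same arrays. Their change in FF is therefore given as a description with no test. Every comparison that includes FF rests on the rabbits that selected the genes and is likewise a description. Tests are given for the FFab and NF rabbits and for the difference between these treatments.

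RNA from the ileum of 57 commercial hybrid rabbits had been hybridized to 1-dye microarrays, 1 array per rabbit. FFab pups found in their nest the feces of unrelated does that received tetracycline and tiamulin, FF pups the feces of unrelated does without antibiotics, and NF pups were kept from feces. All 3 treatments were sampled at day 49 (9 rabbits each) and at day 35, the day of weaning (10 FFab, 10 FF and 9 NF rabbits, after an NF array that the study had set aside was left out). Feces were given or withheld by nest, litter and sex do not enter any fit, and each p-value measures only the spread between the rabbits. All rows of the 4 genes stood well above background on all 57 arrays and none was saturated. Enterocyte markers were present: FABP2, the fatty acid carrier of enterocytes, averaged 17.06 on the log2 scale, and FABP6, the bile acid carrier of the ileum, 18.20. They are the brightest of the 7 enterocyte markers measured. The mean level of the 7 differed between rabbits, from 12.52 to 15.55 in NF and from 15.21 to 15.49 in FF at day 49. FABP6 and the marker SLC10A2 varied most of the 7. The SE of their age difference in FFab was 1.23 and 1.36, against 0.28 for FABP2. Whole ileum was measured, so more cells of a type and more RNA per cell cannot be told apart.

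In cells with enough oxygen, prolyl hydroxylases of the EGLN family mark the HIF alpha subunits for destruction through VHL. When oxygen is short, HIF alpha pairs with ARNT and switches on genes of glucose uptake, glycolysis and vessel growth, and EGLN3 is itself one of its targets. The intestinal epithelium works under low oxygen because the lumen holds almost none, and it is known for HIF activity. HIF1A is regulated mostly through the stability of its protein, which an array does not read. ALDOC splits fructose bisphosphate in glycolysis and is the brain form of aldolase. PFKFB4 makes and removes fructose 2,6-bisphosphate, which drives phosphofructokinase.

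The stretches of RNA that the arrays read are shown because the reading of each gene rests on a single oligonucleotide per row. Each is the stretch of 60 bases given in the scanner files, 5′ to 3′ in the sense of the mRNA. In EGLN3 the capitals mark the stop codon at its end, and the other rows have no part in capitals.
ALDOC: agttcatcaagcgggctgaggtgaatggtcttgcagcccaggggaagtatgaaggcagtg
EGLN3: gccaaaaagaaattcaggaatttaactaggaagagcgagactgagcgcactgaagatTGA
PFKFB4: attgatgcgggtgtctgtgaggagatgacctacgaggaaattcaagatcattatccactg
HIF1A row 1: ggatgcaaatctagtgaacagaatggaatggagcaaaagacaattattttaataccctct
HIF1A row 2: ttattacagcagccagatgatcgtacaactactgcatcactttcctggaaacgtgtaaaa
HIF1A row 3: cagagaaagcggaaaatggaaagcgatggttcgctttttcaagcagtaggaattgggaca

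In the files' build, oryCun2, the ALDOC stretch lies within chr19:19583138-19583337 on the plus strand. The PFKFB4 stretch lies within chr9:16233596-16241511 and the EGLN3 stretch within chr17:53707157-53708040, both on the minus strand. These spans are longer than the stretch itself. The EGLN3 stretch covers positions 660 to 719 of its transcript and ends with the stop codon, so it reads the last codons of the mRNA. The 3 HIF1A stretches follow each other without a gap in the transcript, row 3 from position 2135, row 2 from 2195 and row 1 from 2255, and on chromosome 20 row 1 lies at chr20:9388353-9388412 on the plus strand. The other EGLN3 row is named only in the study's lists of genes that differed between the days, so it has a name because it differed there. That row has no position in the files, so its stretch is not shown. It is called the first row of EGLN3 here, since its level is the one used for the gene (the lower by mean of the 2), and the stretch printed above belongs to the second row.

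ALDOC, the brain form of aldolase, averaged 7.91 on the log2 scale over 56 rabbits. In FFab rabbits it had a lowest value of 7.47, a median of 8.36 and a highest value of 9.37 at day 49, against 7.14, 7.60 and 8.06 at day 35. In 7 of the 9 FFab rabbits of day 49 it was above every FFab rabbit of day 35, and the groups still overlapped. The difference was 0.88 ± 0.22 (SE) on the log2 scale, a fold of 1.84 with a 95% confidence interval of 1.35 to 2.50, and it did not pass after adjustment over all genes (limma, adjusted p = 0.107, unadjusted p = 2.17e-04).

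In FF rabbits ALDOC ranged from 7.88 to 9.36 with a median of 8.67 at day 49, against 6.74 to 8.16 with a median of 7.21 at day 35. All 9 FF rabbits of day 49 were above the median of day 35. This was the change on which the gene was chosen, 1.30 ± 0.22 on the log2 scale or 2.45-fold. In NF rabbits ALDOC ranged from 7.71 to 8.65 with a median of 8.24 at day 49, against 6.37 to 8.45 with a median of 7.39 at day 35. All 9 NF rabbits of day 49 were above the day 35 median, and 2 were above the highest rabbit of day 35. The NF difference was 0.72 ± 0.23 on the log2 scale (limma, adjusted p = 0.426, unadjusted p = 0.00262).

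EGLN3, the prolyl hydroxylase, averaged 10.60 on the log2 scale in its first row. In FFab rabbits its first row had a lowest value of 10.27, a median of 11.09 and a highest value of 11.43 at day 49, against 9.62, 10.45 and 11.07 at day 35. The difference was 0.51 ± 0.18 on the log2 scale and did not pass (limma, adjusted p = 0.352). In FF rabbits it ranged from 10.67 to 11.45 with a median of 10.90 at day 49, against 9.32 to 10.64 with a median of 9.84 at day 35. These 2 groups did not overlap in this row, and how many of all genes share this was not counted. The FF difference of 1.002 ± 0.18 on the log2 scale is the one that chose the gene. In NF rabbits EGLN3 ranged from 9.74 to 11.58 with a median of 11.03 at day 49, against 10.30 to 10.76 with a median of 10.50 at day 35. The lowest NF rabbit of day 49 lay below all NF rabbits of day 35, while 6 of 9 lay above all of them. The NF difference was 0.36 ± 0.18 on the log2 scale (limma, adjusted p = 0.817).

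The second row of EGLN3, the one with the stop codon, gave smaller changes in all 3 treatments. The difference was 0.39 ± 0.16 on the log2 scale in FFab, 0.77 ± 0.16 in FF and 0.34 ± 0.16 in NF, and it did not pass in FFab or NF (limma, adjusted p = 0.459 and 0.786). In FF the groups overlapped in this row (12.39 to 13.22 at day 49, against 11.41 to 12.59 at day 35), and 5 of 9 rabbits of day 49 were above all of day 35. Between rabbits of 1 group the 2 rows moved together (Pearson r = 0.91, Spearman rho = 0.89 over 56 rabbits, permutation p = 1e-05 for each, the smallest that 100000 permutations can give). Without the 2 rabbits farthest from the median of the first row r was 0.89, and with slide means removed 0.95.

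PFKFB4, the bifunctional enzyme, averaged 7.34 on the log2 scale. In FFab rabbits it had a lowest value of 6.49, a median of 7.44 and a highest value of 8.04 at day 49, against 6.60, 7.11 and 7.46 at day 35. The lowest FFab rabbit of day 49 lay below all FFab rabbits of day 35, and the difference was 0.29 ± 0.17 on the log2 scale (limma, adjusted p = 0.690). In FF rabbits it ranged from 7.43 to 8.52 with a median of 7.83 at day 49, against 6.36 to 7.53 with a median of 7.16 at day 35, a difference of 0.75 ± 0.17 on the log2 scale that chose the gene. In NF rabbits it ranged from 7.32 to 8.18 with a median of 7.79 at day 49, against 6.43 to 7.92 with a median of 7.02 at day 35. The NF difference was 0.68 ± 0.17 on the log2 scale, with all 9 rabbits of day 49 above the day 35 median, and did not pass (limma, adjusted p = 0.128, unadjusted p = 3.04e-04). By the estimates, ALDOC and EGLN3 had their smallest age difference in NF, and PFKFB4 had its smallest in FFab.

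**Figure D1:**
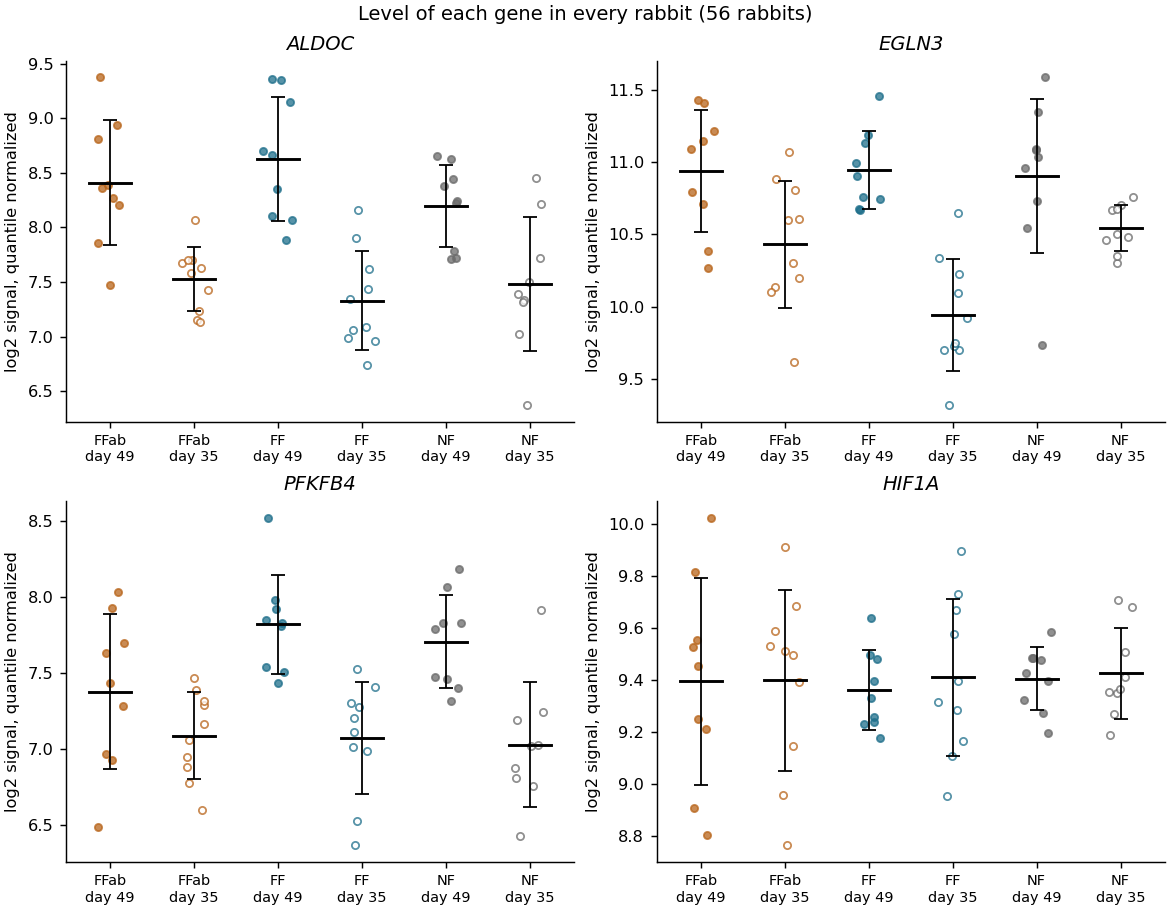
Level of ALDOC, EGLN3 (first row), PFKFB4 and HIF1A (row 1) in each of 56 rabbits, log2 of the quantile normalized signal, by treatment with day 49 (filled) left of day 35 (open). Bars are means with SD. In FF this row of EGLN3 lay at 10.67 to 11.45 on day 49 and 9.32 to 10.64 on day 35, the difference that chose the gene.

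HIF1A, the HIF alpha subunit, showed no detectable difference between the days. In its row 1 the median was 9.46 at day 49 and 9.50 at day 35 in FFab rabbits, 9.33 and 9.36 in FF rabbits, and 9.43 and 9.37 in NF rabbits. All groups overlapped, between a lowest value of 8.76 and a highest of 10.03. The difference between days on the log2 scale was -0.004 ± 0.13 in FFab (limma, adjusted p = 0.996) and -0.02 ± 0.13 in NF (adjusted p = 0.998), and -0.05 ± 0.13 in FF. The 95% intervals ran from -0.26 to 0.25 in FFab, from -0.30 to 0.20 in FF and from -0.28 to 0.24 in NF. These intervals leave out a 2-fold change and not a small one.

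Rows 2 and 3 of HIF1A gave differences between -0.05 and 0.00 in the 3 treatments, all within their errors. The rows did not track each other equally well between rabbits. Rows 2 and 3 had a Pearson r of 0.84 and a Spearman rho of 0.81 (permutation p = 1e-05 each, the smallest possible, n = 56), but rows 1 and 2 only 0.23 and 0.24 (permutation p = 0.113 and 0.0919). Rows 1 and 3 had r = 0.60 and rho = 0.58 (permutation p = 2e-05 and 3e-05). With slide means removed the r of rows 1 and 2 was 0.83. Slides took 50.9% of the within-group variance of row 2 and 29.3% of row 1, against 6.81% for the first row of EGLN3, 14.9% for PFKFB4 and 16.6% for ALDOC. Every slide held all 6 groups before the 1 array was set aside.

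**Figure D2:**
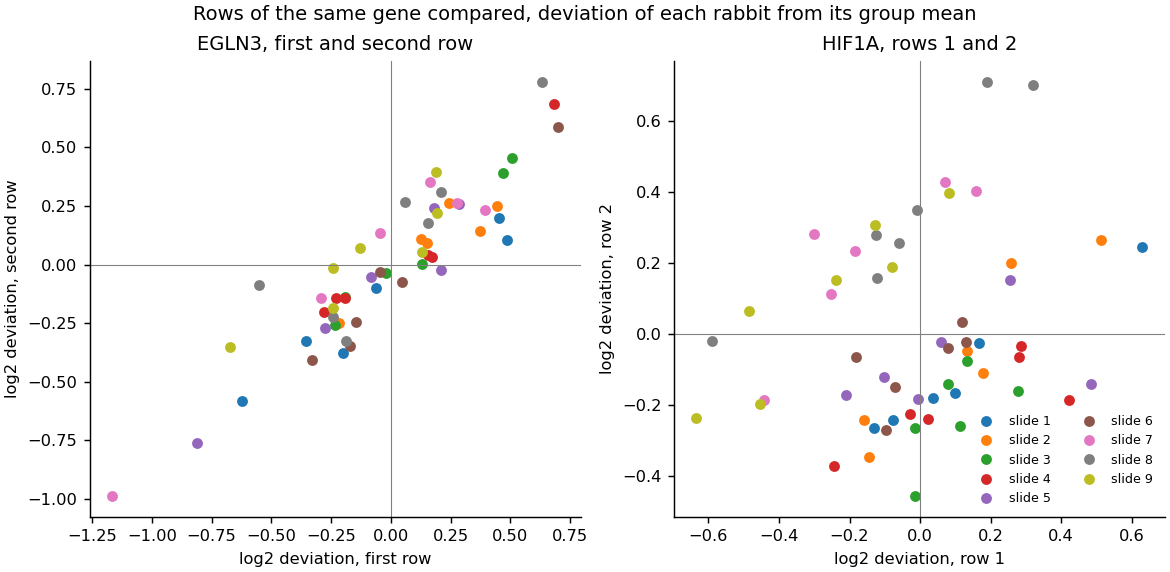
Deviation of each of 56 rabbits from its group mean on the log2 scale, left in the first and second rows of EGLN3, right in rows 1 and 2 of HIF1A, coloured by slide. The EGLN3 rows follow each other (r = 0.91), and the HIF1A rows do so within slides (r = 0.83 with slide means removed) more than over all slides (0.23).

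Across all genes, limma with an adjusted p under 0.05 and a log2 difference beyond 0.5 called 6 of 7974 genes in FFab (0.0752%) and 3 in NF (0.0376%) between the days, and 344 in FF (4.31%). Of the 4 genes read here 0 passed in FFab and 0 in NF. At an unadjusted p under 0.05 stood 2 of the 4 in FFab (ALDOC and EGLN3) and 2 of the 4 in NF (ALDOC and PFKFB4), against 670 and 480 of all genes. In FF 3 of 4 were past the threshold, which repeats their choice. In FFab the change of ALDOC ranked 74 from the largest rise among 7974 genes, that of EGLN3 253 and that of PFKFB4 695. In NF the change of ALDOC was at or above those of 98.7% of the genes, that of EGLN3 of 94.5% and that of PFKFB4 of 98.5%. HIF1A ranked 4005 in FFab and 4378 in NF, near the middle. No test bears on these ranks.

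ALDOC in FFab was the call that turned with the processing. It passed in the deposited log2 table (0.78 ± 0.17 on the log2 scale, adjusted p = 0.0250), with slides as a random block (adjusted p = 0.0399) and with array weights (adjusted p = 0.0317). Over 11 other settings its adjusted p lay between 0.0250 and 0.144. PFKFB4 in NF passed with array weights only (adjusted p = 0.0218, others up to 0.293). EGLN3 did not pass in FFab or NF under any of the 11. Within slides, the day 49 rabbits were above those of day 35 for ALDOC on 9 of 9 slides in FFab, on 9 of 9 in FF and on 7 of 8 in NF. For PFKFB4 this held on 6 of 9 slides in FFab, 9 of 9 in FF and 8 of 8 in NF, and for the first row of EGLN3 on 7 of 9, 9 of 9 and 8 of 8.

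**Figure D3:**
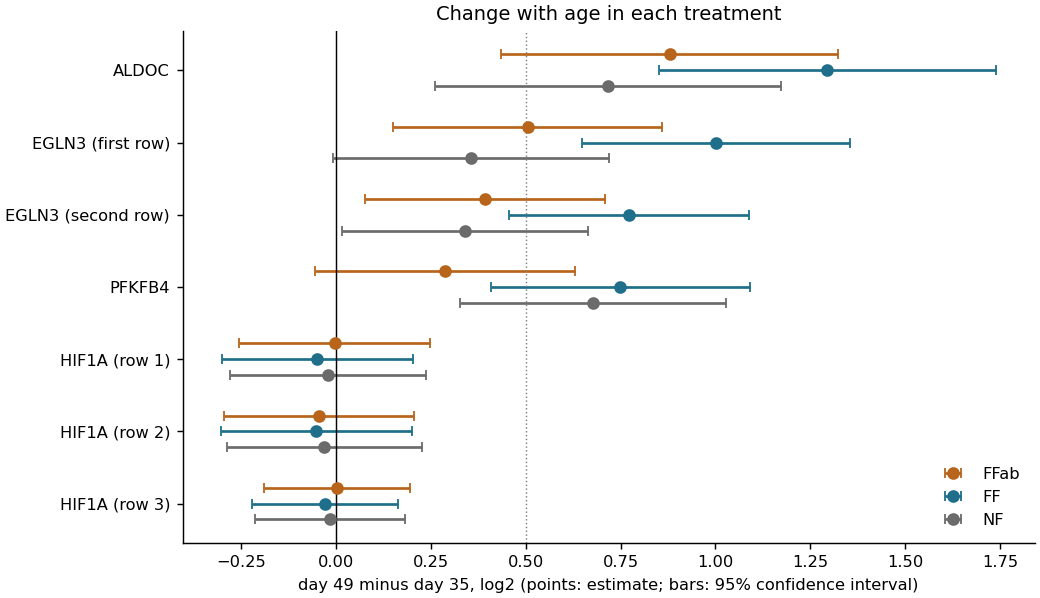
Day 49 minus day 35 on the log2 scale for the 7 rows in FFab, FF and NF, with 95% confidence intervals; the dotted line is the 0.5 used for calls. ALDOC lies at 0.88 in FFab, 1.30 in FF and 0.72 in NF, and the 3 rows of HIF1A lie between -0.05 and 0.00. The FF values chose ALDOC, EGLN3 and PFKFB4.

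Whether the changes differed between treatments was asked directly. The age change in FFab minus that in NF was 0.16 ± 0.32 on the log2 scale for ALDOC, 0.15 ± 0.25 for EGLN3 and -0.39 ± 0.24 for PFKFB4, with 0 of the 4 genes and 0% of all genes passing (limma, adjusted p = 0.999 for each, 73 genes at an unadjusted p under 0.05). The interval for PFKFB4 ran from -0.88 to 0.10. Against FF, where the genes had been chosen, the age change was smaller in FFab by 0.42 ± 0.31 for ALDOC, 0.50 ± 0.25 for EGLN3 and 0.46 ± 0.24 for PFKFB4, given as description. The age change in FF minus that in NF was 0.58 ± 0.32 for ALDOC, 0.65 ± 0.25 for EGLN3 and 0.07 ± 0.24 for PFKFB4.

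Treatments were then compared within a day. Between FFab and NF 0 of the 4 genes passed at either day (limma; 0 of 8 tests had an unadjusted p under 0.05), where 0% of all genes passed. At day 35 the share of all genes called was 0.0376% for FF against NF, 0% for FFab against NF and 0.0125% for FFab against FF, and at day 49 it was 0% for each pair. The comparisons with FF are a description, since a low FF value at day 35 or a high one at day 49 belongs to the rise that chose the genes. At day 35 the first row of EGLN3 had a median of 10.45 in FFab, 9.84 in FF and 10.50 in NF. FF minus NF was -0.60 ± 0.18 on the log2 scale and FFab minus FF was 0.49 ± 0.17, and in the second row these differences were -0.39 ± 0.16 and 0.41 ± 0.15. At day 49 the first row of EGLN3 averaged 10.94 ± 0.42 in FFab, 10.95 ± 0.27 in FF and 10.90 ± 0.53 in NF (SD, n = 9 each), so the 3 treatments lay within their spread.

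PFKFB4 at day 49 averaged 7.38 ± 0.51 in FFab, 7.82 ± 0.33 in FF and 7.71 ± 0.31 in NF (SD, n = 9 each). FFab minus NF was -0.33 ± 0.17 on the log2 scale (limma, adjusted p = 0.9999, unadjusted p = 0.0647), and FFab minus FF, given as description, was -0.45 ± 0.17. At day 35 it averaged 7.09 ± 0.28 in FFab, 7.07 ± 0.37 in FF and 7.03 ± 0.41 in NF. ALDOC at day 49 averaged 8.41 ± 0.57 in FFab, 8.62 ± 0.57 in FF and 8.20 ± 0.37 in NF, with FF minus NF, given as description, at 0.43 ± 0.23. At day 35 it averaged 7.53 ± 0.29 in FFab, 7.33 ± 0.45 in FF and 7.48 ± 0.61 in NF. From high to low the means of ALDOC ran FF, FFab and NF at day 49, then FFab, NF and FF at day 35, and neighbours of 1 day in that order did not differ beyond their spread.

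No pair of the 4 genes was related past the threshold between rabbits of 1 group. Of the 6 pairs, 0 had an adjusted permutation p under 0.05 over 56 rabbits. ALDOC with EGLN3 had r = -0.06 and rho = -0.03 (permutation p = 0.672 and 0.803), and ALDOC with PFKFB4 r = 0.11 and rho = 0.08 (permutation p = 0.462 and 0.550). EGLN3 with PFKFB4 had r = 0.09 and rho = 0.07 (permutation p = 0.510 and 0.603). EGLN3 with HIF1A had r = 0.29 and rho = 0.29 (permutation p = 0.0455 and 0.0436, adjusted 0.273 and 0.262), r = 0.36 without the 2 rabbits farthest from the EGLN3 median and 0.25 with slide means removed. HIF1A had r = 0.00 with ALDOC and -0.05 with PFKFB4 (rho = -0.07 and -0.09, permutation p = 0.995 and 0.765 for r, 0.611 and 0.533 for rho). The order of the pairs depended on the processing: ALDOC with HIF1A reached r = 0.27 with slide means removed (adjusted permutation p = 0.291) and 0.29 in the deposited log2 table (adjusted permutation p = 0.234), where EGLN3 with HIF1A had 0.25 and 0.26.

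The genes most like each of the 3 among rabbits of 1 group were looked up by Pearson r of deviations from the group means, over 7974 genes and 56 rabbits that share slides and scaling. For ALDOC these were SERPINF1 (r = 0.71), which encodes a secreted factor against vessel growth, FABP4 (0.69), the fatty acid carrier of fat cells, the water channel AQP4 (0.69), the serine synthesis enzyme PHGDH (0.63) and G0S2 (0.63), which restrains fat breakdown. For EGLN3 they were the lipase PNLIP (r = 0.58), the peptide transporter SLC15A1 (0.57), an unnamed locus, LOC100338139 (0.55), the brush border peptidase DPP4 (0.54) and TPD52 (0.53). For PFKFB4 they were QDPR (r = 0.60), which recycles tetrahydrobiopterin, IGSF8 (0.58), TMEM117 (0.56), MOGAT1 of triglyceride synthesis (0.55) and LOC100340968 (0.54). No gene stands in more than 1 of these lists of 5.

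FABP4 belongs to the fat tissue markers, of which 3 of 9 were measured. They differed between the days as well: in FF 2 of 3 rose, FABP4 by 1.71 ± 0.47 and the lipase LPL by 1.68 ± 0.28 on the log2 scale, in NF FABP4 differed by 2.12 ± 0.48 and LPL by 1.26 ± 0.28 without passing, and in FFab by 1.34 ± 0.47 and 1.15 ± 0.28 without passing. The mean level of the 3 over rabbits ranged from 8.66 to 10.93 at day 49 and from 8.40 to 9.82 at day 35 in FFab, from 9.68 to 10.71 and from 8.14 to 9.58 in FF, and from 9.03 to 11.41 and from 6.80 to 9.36 in NF. LEP, the fat cell hormone, averaged 5.31. Of the striated muscle markers 5 of 14 were measured, and in FF 2 rose, TNNC1 by 1.85 ± 0.28 and ACTN2 by 2.08 ± 0.41. TNNC1 was also called in FFab (1.6 ± 0.28) and NF (1.55 ± 0.29). Its mean level was low, 5.03 on the log2 scale beside 10.12 for ACTN2. TNNC1 did not stand for its list in NF, where 3 of the 5 were below 0, with a list median of 0.54 in FFab, 0.71 in FF and -0.18 in NF. Their mean level over rabbits ranged from 6.81 to 8.97 at day 49 and 6.11 to 8.76 at day 35 in FFab, 8.05 to 9.33 and 7.11 to 8.22 in FF, and 6.79 to 8.47 and 6.52 to 8.84 in NF. Of the smooth muscle markers 5 of 8 were measured and 0 passed in any treatment, with 3 of 5 above 0 in FFab, 5 of 5 in FF and 0 of 5 in NF and medians of 0.04, 0.38 and -0.18. Their mean level ranged from 11.65 to 13.41 at day 49 and 11.34 to 13.80 at day 35 in FFab, 12.09 to 13.23 and 11.49 to 12.70 in FF, and 11.84 to 12.85 and 11.94 to 13.17 in NF. Of the enterocyte markers 7 of 12 were measured and 1 rose in FF, the alkaline phosphatase ALPI (1.13 ± 0.28). In each treatment 6 of 7 were above 0, with medians of 0.57 in FFab, 0.56 in FF and 0.17 in NF. Their mean level ranged from 13.54 to 15.56 at day 49 and 12.81 to 15.18 at day 35 in FFab. In FF it ranged from 15.21 to 15.49 and 14.06 to 15.49, and in NF from 12.52 to 15.55 and 13.10 to 15.59. Of the red blood cell markers 4 of 12 were measured and CA1, a carbonic anhydrase, fell in FF (-2.49 ± 0.67). The others were not called in FF: ALAS2 differed by -0.67 ± 0.29, SLC4A1 by -0.15 ± 0.28 and EPB42 by -0.08 ± 0.21. Of the neural and glial markers 6 of 10 were measured and ELAVL4 fell in FF (-0.55 ± 0.16), with medians of -0.13 in FFab, -0.17 in FF and -0.21 in NF. Endothelial (5 of 8 measured), leukocyte (7 of 11) and proliferation markers (4 of 6) held 0 calls. In the same order of treatments their medians were -0.14, -0.15 and -0.12, then 0.19, 0.10 and 0.10, then -0.21, -0.10 and -0.27. Beside these counts of markers, 0.0752% of all genes were called in FFab, 4.31% in FF and 0.0376% in NF. Calls of markers in FF are a description too, since the lists were chosen with earlier results of these arrays known. The part of the markers in the results for ALDOC, EGLN3 and PFKFB4 was not tested.

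The other genes of oxygen sensing are described by their median. Of the sensing genes and HIF subunits other than EGLN3 and HIF1A, 8 of 13 were measured and 0 passed in any treatment, beside 0.0752% of all genes in FFab, 4.31% in FF and 0.0376% in NF, shares at which 8 genes could hold 0 calls as well. Their median difference was -0.02 in FFab, -0.04 in FF and 0.07 in NF on the log2 scale, against -0.003, -0.01 and -0.004 over all genes. EGLN1, the main prolyl hydroxylase and close relative of EGLN3, differed by 0.01 ± 0.08 in FFab, -0.03 ± 0.08 in FF and 0.004 ± 0.08 in NF, and the HIF partner ARNT by 0.18 ± 0.10, 0.09 ± 0.10 and 0.01 ± 0.11. The adaptor VHL differed by -0.08 ± 0.16 in FFab, -0.06 ± 0.16 in FF and -0.08 ± 0.16 in NF. EGLN1, ARNT and VHL were picked for their roles after their values were seen.

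Of the HIF targets outside glycolysis 24 of 33 were measured. In FF 0 rose and 1 fell, the collagen cross-linking enzyme LOX (-0.60 ± 0.20 on the log2 scale), and 0 of 24 passed in FFab or NF. These counts were near the shares of all genes called (0.0752% in FFab, 4.31% in FF and 0.0376% in NF). The 24 differences ran from -0.60 to 0.66 in FF, with a median of 0.14. The medians were 0.11 in FFab and -0.04 in NF. The lipoprotein receptor VLDLR, just outside the threshold, differed by 0.57 ± 0.19 in FF. ANGPTL4, an inhibitor of lipoprotein lipase, differed by 0.66 ± 0.32 in FF without passing. The mitophagy receptor BNIP3, a textbook target, differed by 0.21 ± 0.16 in FFab, -0.05 ± 0.16 in FF and -0.13 ± 0.16 in NF. VLDLR, ANGPTL4 and BNIP3 were picked after their values were seen. The list was chosen with earlier results of these arrays known, so its FF values and calls are a description.

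Of the plain glycolytic enzymes 16 of 22 were measured, and 0 passed in any treatment, a count near the shares of all genes called (0.0752% in FFab, 4.31% in FF and 0.0376% in NF). Their median difference was -0.02 in FFab, 0.04 in FF and 0.02 in NF on the log2 scale, against -0.003, -0.01 and -0.004 over all genes. The enolase ENO1 differed by -0.01 ± 0.09 in FFab, 0.05 ± 0.09 in FF and -0.07 ± 0.09 in NF, and the pyruvate kinase PKM by -0.01 ± 0.15, 0.12 ± 0.15 and 0.00 ± 0.15. LDHB, the lactate dehydrogenase subunit of aerobic tissue, differed by -0.05 ± 0.13 in FFab, 0.22 ± 0.13 in FF and 0.03 ± 0.13 in NF. ENO1, PKM and LDHB were picked after their values were seen.

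Of the other enzymes that set the level of fructose 2,6-bisphosphate, all 3 listed were measured. PFKFB1, the liver and muscle form of the enzyme, rose in FF by 1.64 ± 0.36 on the log2 scale. It differed by 0.62 ± 0.36 in FFab and 0.63 ± 0.37 in NF without passing. Its mean level was low, 5.86 on the log2 scale beside 7.34 for PFKFB4. PFKFB2 and TIGAR were not called in any treatment. Of the genes of gluconeogenesis and fructose use 9 of 11 were measured. SLC5A1, the sodium-coupled glucose carrier of the brush border, was called as higher in FF (0.80 ± 0.19) and the others were not called. Of the genes that handle pyruvate and lactate 6 of 10 were measured and 0 passed. Among all genes 0.0752% were called in FFab, 4.31% in FF and 0.0376% in NF. Lists this small can hold 0 or 1 call at the FF share as well. They were chosen with earlier results of these arrays known, so their FF values and calls are a description.

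**Figure D4:**
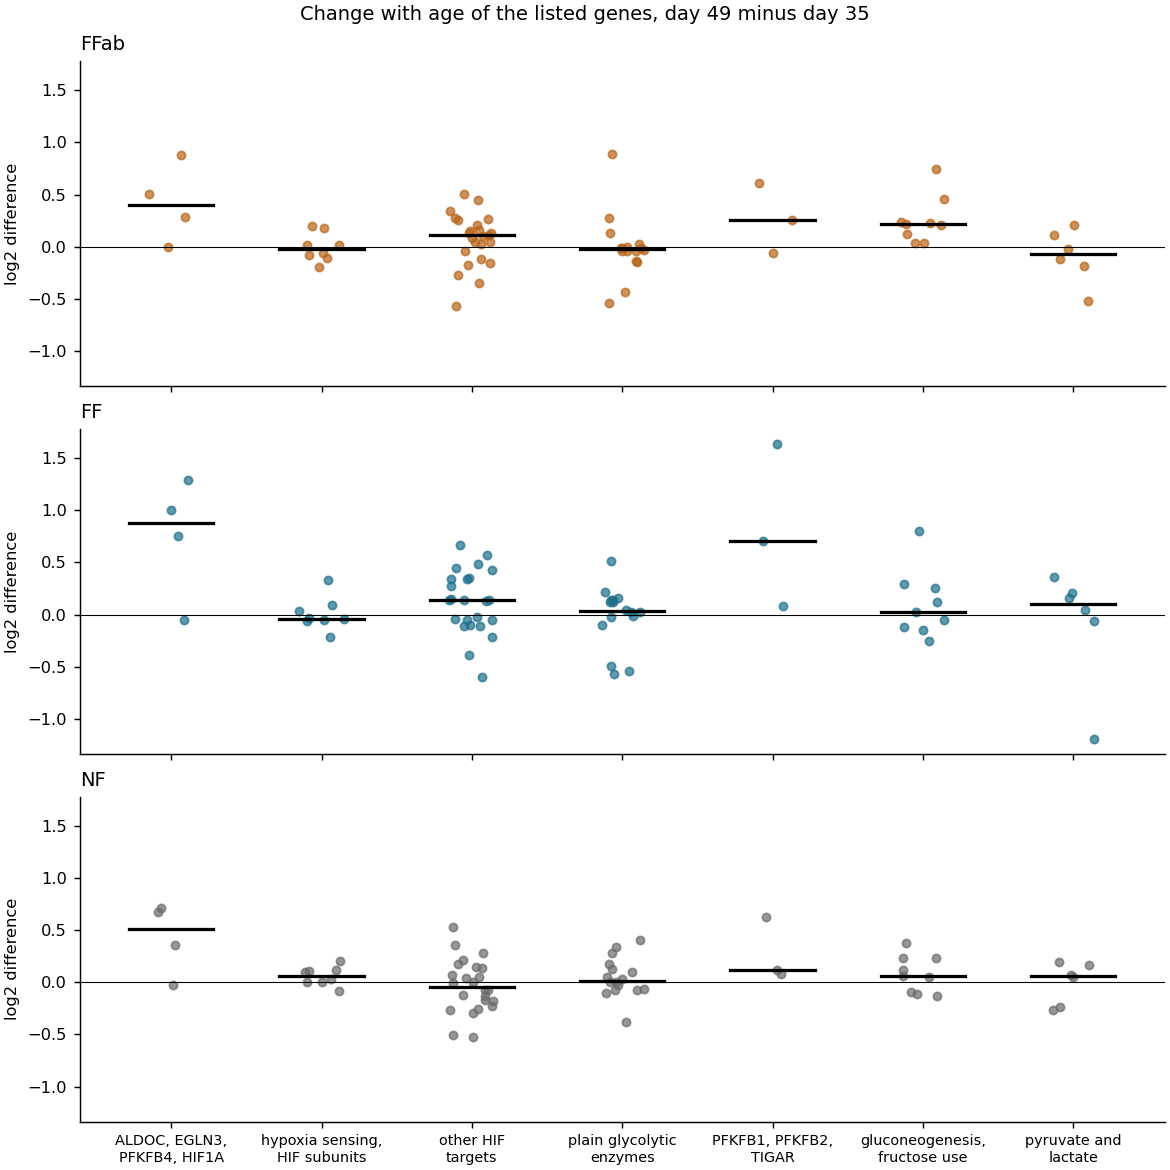
Day 49 minus day 35 on the log2 scale for each gene of the lists in FFab, FF and NF (1 point per gene, bar at the median). ALDOC, EGLN3 and PFKFB4 were chosen by their FF values. The 16 glycolytic enzymes lie around 0 in each treatment, and PFKFB1, with a low mean level of 5.86, stands at 1.64 in FF.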

How the data were processed

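The authors deposited 57 scanner files with the intensity of each spot, as well as their normalized log2 values, tabulated for 33284 of 42089 probes. Feature Extraction is 10.7.3.1 in the submitters' processing notes and 10.10.1.1 in the file headers. Deposited flags (other values) say which spots stood well above background. Here, the logarithm of the background-subtracted intensity was normalized by quantiles (limma 3.58.1, R 4.3.3) over the study's 56 arrays. The filter on dim probes asked for 50% of spots well above background on 75% of arrays in 1 group or more, and 31722 probes passed. Names came from probe accessions, gene identifiers or, for 135 probes of the table, from the study's lists of genes that differed between the days. These 135 have a name because they differed there, and the share of genes called in FF may include them. The fit tested 7974 genes, each by its probe of median level. limma fitted 6 group means, with Benjamini-Hochberg adjusted p under 0.05 and a log2 difference beyond 0.5 as threshold. Correlations used deviations from group means, with 100000 permutations within groups, and the number of arrays limits precision. The steps were tested on simulated data. The named genes are all members, at most 4 genes per list past the threshold, and the 5 most like each of 3 genes. Some further genes of the lists, among them FABP2, FABP6 and LEP, were picked outside this rule. Members and lists were chosen with earlier results of these data known. Some genes are left out of the text.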

Additional observations from a re-analysis of the deposited data

Results flagged for a closer look

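The highest PFKFB4 value among FF rabbits of day 49 stood apart from the others. That rabbit had 8.52 on the log2 scale and the next highest rabbit 7.98, a gap of 0.50 of the range of the group. Of 42 combinations of row and group checked, this was the 1 with such a gap, and chance gives about 1 in 20 groups. Where the age changes of FFab and NF were set against each other, 0 of 7 rows passed.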

How the results depend on the processing

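No paired analysis was possible because the numbers of the rabbits are unique to each. Of the 146 checks of counts and FF values, 142 kept the main result. Part of these checks could not move. ALDOC and PFKFB4 have 1 row each, so the filters and the choice of probe leave their FF values the same. The exceptions were counts of members called, 0 in the main result: 1 in FFab (ALDOC) with the deposited log2 table, with slides as a random block and with array weights, and 1 in NF (PFKFB4) with array weights. The change of HIF1A, which is near 0, turned sign to 0.0716 in FFab with array weights, and in NF to 0.00111 with normexp background, 0.0237 with all 57 arrays and 0.0204 with array weights, none past the threshold. The cause was not tested. The other alternatives (percentile scaling, slide as fixed block, the filters on dim probes, the brightest probe and, added after seeing the data, the second EGLN3 row) changed no call of these genes. Signal over background limited none of the 7 rows.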

Other observations

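The NF rabbit of day 35 set aside by the study, rabbit 78, entered no comparison. On its array ALDOC had 7.18 on the log2 scale, within the range of the other NF rabbits of that day. PFKFB4 had 7.96 and EGLN3 11.51 in its first row and 13.13 in its second, above all 9 of them, and HIF1A had 8.98 in row 1, below all 9.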
